A study of Sus scrofa with 8 samples.

Results

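Transcripts of 63 chaperone and cochaperone genes were examined in the left ventricle of 8 pigs, 4 gene-edited (mutant) and 4 wild type (WT). The genes were chosen by name. They are CRYAB, HSF1 and every listed gene whose symbol starts with HSPA, HSPB and a digit, HSPD, HSPE, HSPH, HSP90A, DNAJ or BAG and a digit. HSPA5, DNAJB9 and DNAJC3, which serve the endoplasmic reticulum, were left out. The names matched 67 of the 14718 genes in the table, and 63 of these passed a minimum normalized count of 10 in at least 4 libraries, as did 11660 genes in all. A normalized count is a gene's read count divided by a scaling factor of its library.

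The genotype label of mutant replicates 1 to 3 is a KCNH2 mutation. That of mutant replicate 4 names KCNH3 instead, whereas the description of the series speaks of KCNH2. KCNH2 encodes a potassium channel that repolarizes ventricular muscle, and its loss causes long QT syndrome, the disease that these pigs were made to model. The labels give neither the edited allele and its zygosity nor the age, sex or litter of any pig. They number the pigs separately, and p-values measure only the spread between these samples.

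Chaperones bind proteins that are unfolded or partly folded and keep them from aggregating. HSP70 proteins take up clients from J proteins (DNAJ genes), bind them with energy from ATP and release them with help from exchange factors such as the BAG and HSP110 proteins, while HSP90 acts later on kinases and receptors. In mitochondria the matrix HSP70 mortalin (HSPA9) and a folding chamber of HSP60 and HSP10 (HSPD1 and HSPE1) do this work. Heart muscle is rich in small heat shock proteins such as αB-crystallin (CRYAB), which hold sarcomere and desmin proteins, and the transcription factor HSF1 switches on many of these genes under heat or protein damage. The names take in more than the cytosol and mitochondria. Examples known as genes of the endoplasmic reticulum are DNAJB11, DNAJC1, DNAJC10 and HSPA13, and this is not a full list.

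Reads counted to the listed genes came to 15.9 to 22.4 M per library (M, the SI prefix mega) in the mutant group and 16.8 to 21.6 M in the WT group. Shares of reads below are shares of these counted reads. The 13 mitochondrially encoded genes took 27.5%, 19.9%, 16.7% and 15.9% of the reads in mutant replicates 1 to 4, against 33.5%, 31.7%, 87.9% and 65.2% in WT replicates 1 to 4. WT replicates 3 and 4 stood apart in this way and had 2.53 M and 7.53 M reads of nuclear genes. The other 6 libraries had at least 11.5 M. Results are therefore also given without WT replicates 3 and 4. Cardiomyocyte markers (9 of 10 listed were in the table, none at 0 in any library) summed to 727784 to 952620 normalized counts in mutant and 453454 to 696281 in WT libraries. These ranges did not overlap. In bulk tissue, fewer cells of a type and less RNA per cell cannot be told apart. Erythroid markers (2 of 3 in the table) summed to 2466 to 2914 in mutant and 49.7 to 30916 in WT libraries. Neutrophil markers (3 of 4 in the table, with S100A8 at 0 in at least 1 library) summed to 14.0 to 319 in mutant and 63.1 to 2198 in WT libraries. Both were highest in WT replicate 2. Fibroblast markers (6 of 6) summed to 26328 to 72010 in mutant and 6560 to 115096 in WT libraries. What part these differences have in the chaperone values was not tested.

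No chaperone gene passed the test between mutant and WT ventricles. In limma's moderated test with Benjamini-Hochberg adjustment over 11660 genes, 0 of 63 had an adjusted p under 0.05 in either direction, and the percentage called over all genes was 0 both higher and lower. At an unadjusted p under 0.05 there were 5 members higher and 1 lower in mutant libraries, 7.94% and 1.59% of the 63. Over all genes tested the shares were 7.06% higher and 6.80% lower. Without mutant replicate 4, the library labelled KCNH3, 1 member was higher and 1 lower, against 3.66% and 4.24% of all genes. The groups did not overlap for 4 members, 2 with mutant values on top and 2 with WT values on top, 3.17% each way, against 6.17% and 5.22% of all genes. Without WT replicates 3 and 4 there were 3 members higher and 1 lower at an unadjusted p under 0.05, against 8.54% and 7.46% of all genes. Groups were then apart for 6 members higher and 8 lower, against 15.2% and 14% of all genes. The members' median log2 difference (mutant minus WT) was 0.15, beside 0.12 over all genes. Of the differences 44 were above 0 (69.8%, beside 56.9% of all genes) and 19 below. Without WT replicates 3 and 4, 44.4% were above 0, beside 51.1%. The share higher at an unadjusted p under 0.05 with all libraries was near that of genes in general. The other shares at that threshold or without overlap were under those of all genes. The share above 0 was over that of all genes with all libraries and under it without WT replicates 3 and 4.

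**Figure D1:**
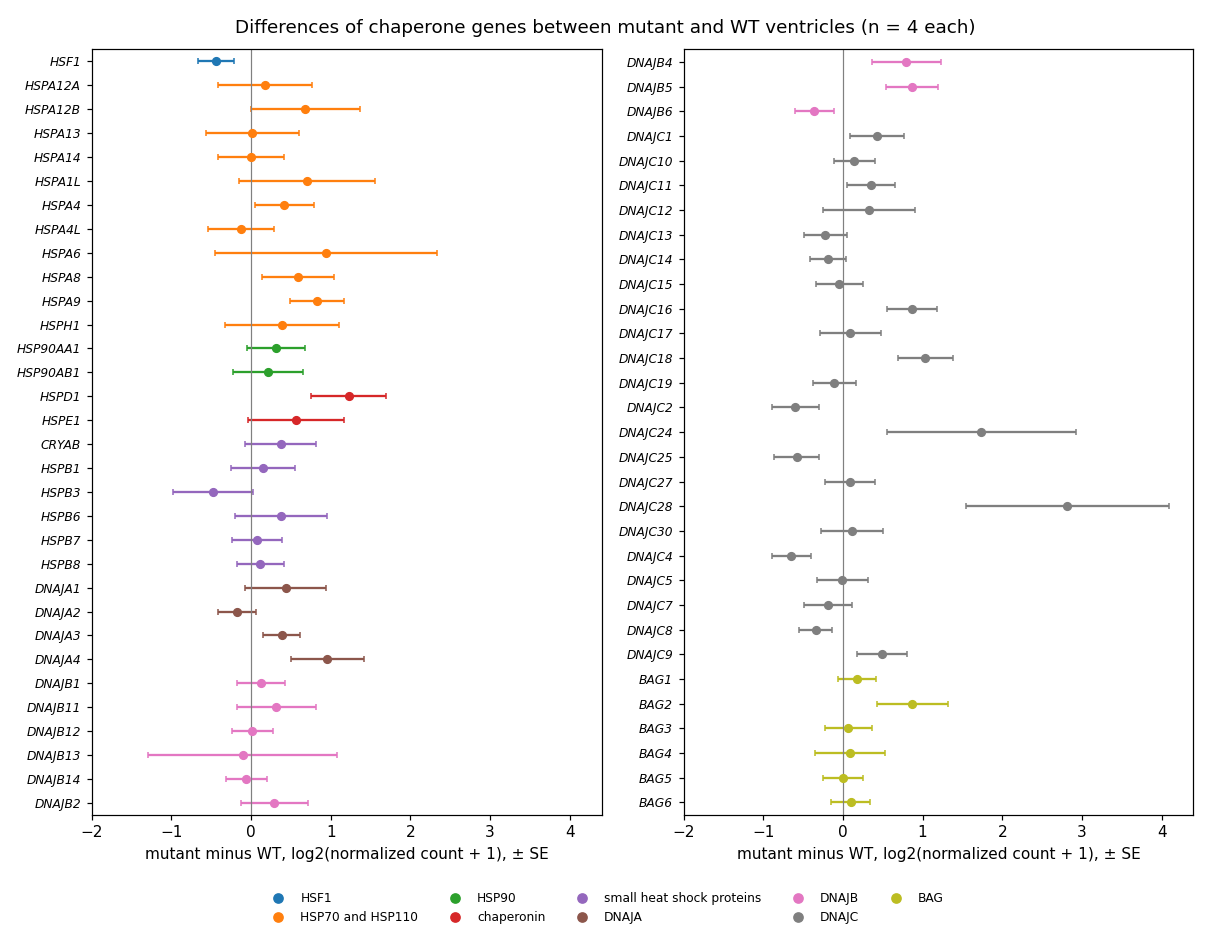
Difference between mutant and WT ventricles for each of the 63 chaperone genes on the log2(normalized count + 1) scale, with its standard error (n = 4 pigs each), coloured by family. Most points lie within 1 unit of 0, and the intervals of DNAJC28, HSPA6, DNAJC24 and DNAJB13, which have low counts, are the widest.

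HSF1 itself was measured at 574, 718, 827 and 823 normalized counts in mutant replicates 1 to 4, against 894, 1108, 1192 and 816 in WT replicates 1 to 4. The groups overlapped only through the lowest WT value. Its log2 difference was -0.44 ± 0.23 (SE; limma adjusted p = 0.405), and it stayed between -0.54 and -0.33 when any 1 library was left out. HSF1 is regulated largely through its protein, so its transcript level is not a readout of its activity.

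None of the 3 main mitochondrial matrix chaperones, HSPD1, HSPA9 and HSPE1, passed the threshold. HSPD1, the HSP60 subunit of the folding chamber, had 4660, 6005, 8195 and 8977 normalized counts in mutant replicates 1 to 4. In WT replicates 1 to 4 it had 6091, 4218, 2054 and 1304. WT replicate 1 reached into the mutant range, and the 2 lowest values were those of the WT libraries with the high mitochondrial shares. The means were 6959 ± 1983 in mutant and 3417 ± 2169 in WT libraries (SD, n = 4 each), a log2 difference of 1.23 ± 0.47 (SE; limma adjusted p = 0.311). Without WT replicates 3 and 4 the difference was 0.41.

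HSPA9, mortalin, which also pulls imported proteins into the matrix, had 7699, 9271, 12867 and 13868 normalized counts in mutant replicates 1 to 4, against 6422, 6802, 8415 and 3507 in WT replicates 1 to 4. Mutant replicate 1 lay below WT replicate 3, and the other 3 mutant libraries lay above every WT library. The log2 difference was 0.83 ± 0.33 (SE; limma adjusted p = 0.322). It was 0.68 without WT replicates 3 and 4, so the size of this difference rested less on those libraries than that of HSPD1.

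HSPE1, the HSP10 lid of the chamber, did not follow HSPD1 in every library. It had 2329, 3272, 3976 and 4132 normalized counts in mutant replicates 1 to 4, against 5658, 2751, 2945 and 575 in WT replicates 1 to 4. The WT group held both the highest and the lowest value, and the difference was 0.56 ± 0.60 (SE; limma adjusted p = 0.667). HSPD1 and HSPE1 are neighbours in the RefSeq annotation of Sscrofa11.1. Normalized counts of HSPD1 divided by those of HSPE1 were 2.0, 1.84, 2.06 and 2.17 in mutant replicates 1 to 4, and 1.08, 1.53, 0.697 and 2.27 in WT replicates 1 to 4. The ratio was 2.02 ± 0.141 in mutant and 1.39 ± 0.676 in WT libraries (SD, n = 4 each). It is a ratio of reads, not per length, it was chosen after its values were seen, and it is given as a description.

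**Figure D2:**
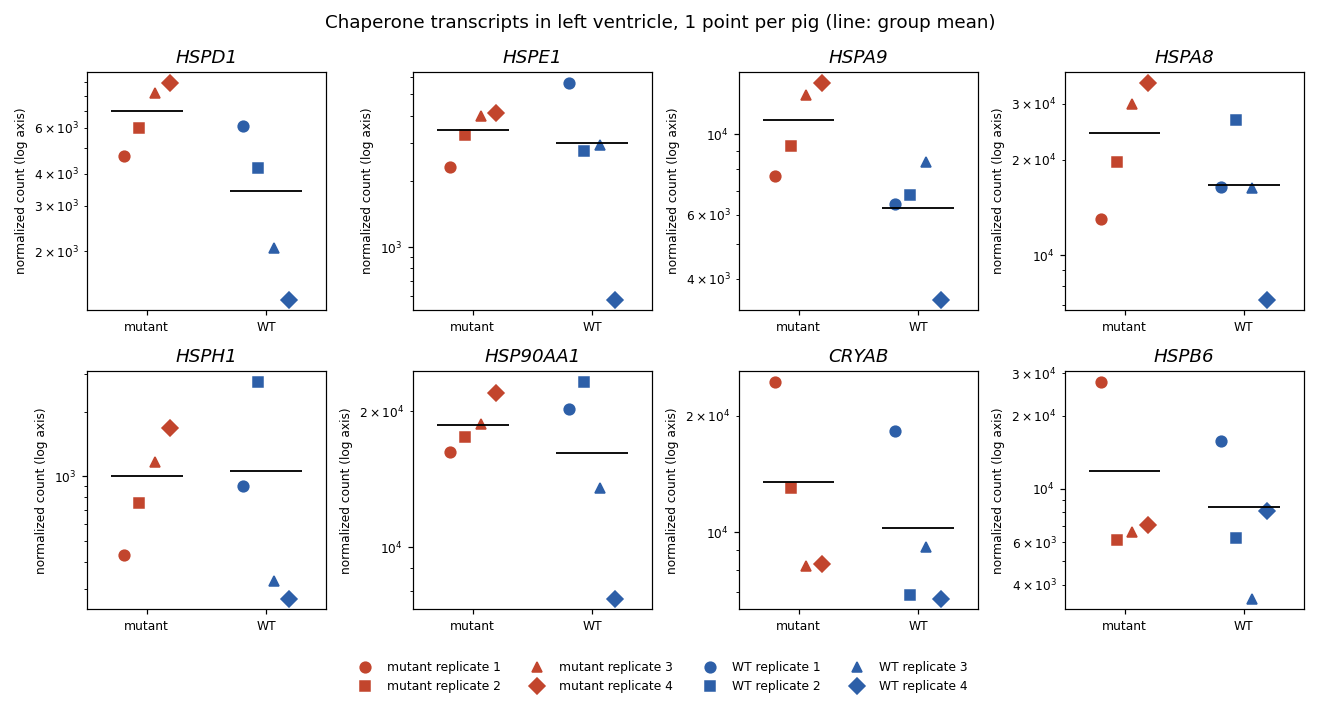
Normalized counts of 8 chaperone genes (log axis) in each pig, mutant on the left and WT on the right, with a line at the group mean. HSPD1, HSPA9 and HSPA8 had mutant replicates 3 and 4 at the top and WT replicate 4 at the bottom, whereas CRYAB and HSPB6 were highest in mutant replicate 1.

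Of the 10 mitochondrial members, 7 had differences above 0 and 3 below, with a median of 0.37, beside 0.12 over all genes. Among them 2 had an unadjusted p under 0.05 in the higher direction (HSPD1 and HSPA9) and 1 in the lower (DNAJC4), 20% and 10% of the 10, beside 7.06% and 6.80% of all genes. Without mutant replicate 3, mutant replicate 4 or WT replicate 4, 0 of the 10 were higher, against 4.19%, 3.66% and 7.71% of all genes. Leaving out any other 1 library gave 2 or 3 higher, against 4.99% to 9.93% of all genes. DNAJA3, the J protein that works with mortalin, had 1375, 1361, 1595 and 1512 normalized counts in mutant replicates 1 to 4, against 1384, 1382, 916 and 886 in WT replicates 1 to 4. WT replicates 1 and 2 lay within the mutant range, and the difference of 0.39 ± 0.23 (SE; limma adjusted p = 0.462) was 0.08 without WT replicates 3 and 4. DNAJC4 had 186, 215, 240 and 242 normalized counts in mutant replicates 1 to 4, against 379, 271, 441 and 309 in WT replicates 1 to 4. Every mutant value lay below every WT value, with a difference of -0.65 ± 0.25 (SE; limma adjusted p = 0.310) that was -0.55 without WT replicates 3 and 4. Its span overlaps that of TRPT1 in the RefSeq table, and reads from such a neighbour cannot be told apart where counting by strand is not stated.

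DNAJC28 had the largest difference of the 63 members and one of the largest errors. It had 331, 73.7, 82.2 and 109 normalized counts in mutant replicates 1 to 4, against 55.6, 70.8, 0 and 21.8 in WT replicates 1 to 4. The groups did not overlap, although mutant replicate 2 and WT replicate 2 were nearly level. The log2 difference was 2.81 ± 1.27 (SE; limma adjusted p = 0.363), and 0.95 without WT replicates 3 and 4. On the reads it was smaller, at 1.95 in DESeq2 and 1.92 in edgeR. A single read of WT replicate 3 counts as 4.84 after scaling, so a count of 0 there allows up to 14.5 normalized counts (3 reads, counting error only). DNAJC11, DNAJC15, DNAJC19 and DNAJC30 had differences of 0.35, -0.04, -0.11 and 0.12. Their groups overlapped.

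The HSP70 and HSP110 family had 11 tested members, 9 with differences above 0 and 2 below. Only HSPA9 had an unadjusted p under 0.05, in the higher direction (9.09%, beside 7.06% of all genes). HSPA8, the constitutive HSC70, had 12988, 19631, 29797 and 34884 normalized counts in mutant replicates 1 to 4. In WT replicates 1 to 4 it had 16445, 26661, 16292 and 7264. Mutant replicates 3 and 4 were highest and WT replicate 4 lowest, with the other libraries mixed, and the difference of 0.59 ± 0.45 (SE; limma adjusted p = 0.550) was 0.12 without WT replicates 3 and 4. HSPA4, an HSP110 exchange factor, had 2212, 1677, 2323 and 2647 in mutant replicates 1 to 4, against 2434, 2782, 1022 and 1042 in WT replicates 1 to 4. WT replicates 1 and 2 lay within or above the mutant range, and its difference was 0.41 with all libraries but -0.25 without WT replicates 3 and 4.

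HSPH1, the heat-inducible HSP110, varied widely in both groups. It had 428, 750, 1170 and 1688 normalized counts in mutant replicates 1 to 4, against 904, 2760, 325 and 269 in WT replicates 1 to 4. The highest and the 2 lowest values were all WT. The difference was 0.38 ± 0.72 (SE; limma adjusted p = 0.812), and -0.82 without WT replicates 3 and 4. It was also below 0 in DESeq2 (-0.08) and edgeR (-0.07) on the reads.

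The 67 matched symbols do not include HSPA1A, HSPA1B or HSPA2, so these genes were not analysed. HSPA6, a heat-inducible HSP70 gene, and HSPA1L, a relative of the inducible genes, had low counts. HSPA1L had 13.4, 22.0, 18.6 and 23.2 in mutant replicates 1 to 4, against 11.1, 44.1, 4.84 and 6.07 in WT replicates 1 to 4. The value of WT replicate 3 was 1 read. HSPA1L shares its locus with near-identical HSP70 genes, and reads could be split between them. HSPA6 had 18.9, 94.9, 2.86 and 11.3 in mutant replicates 1 to 4, against 6.36, 41.5, 0 and 20.6 in WT replicates 1 to 4. In both groups its highest value was in replicate 2, and its difference of 0.94 ± 1.39 (SE; limma adjusted p = 0.762) was smaller than its error.

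HSPA12B, an atypical HSP70 known from endothelial cells, had 1092, 1020, 878 and 810 normalized counts in mutant replicates 1 to 4, against 772, 109, 935 and 1510 in WT replicates 1 to 4. The lowest value was that of WT replicate 2 and the highest that of WT replicate 4. The endothelial markers, 6 of 6 in the table and none at 0, summed to 24327, 15071, 16639 and 15927 in mutant replicates 1 to 4 and to 19266, 7893, 7427 and 37140 in WT replicates 1 to 4. WT replicate 4 was thus highest on both, whereas WT replicate 3 was lowest on the markers and not on HSPA12B. HSPA12A, HSPA13, HSPA14 and HSPA4L had differences of 0.17, 0.01, -0.004 and -0.13, each with overlapping groups.

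Neither cytosolic HSP90 gene separated the groups. HSP90AA1, the inducible isoform, had 16253, 17490, 18698 and 21971 normalized counts in mutant replicates 1 to 4, against 20262, 23222, 13487 and 7691 in WT replicates 1 to 4. The mutant values lay between WT replicates 2 and 3. The difference was 0.31 ± 0.36 (SE; limma adjusted p = 0.690), and -0.23 without WT replicates 3 and 4. HSP90AB1, the constitutive isoform, had 3669, 4599, 5265 and 5641 in mutant replicates 1 to 4, against 2786, 5356, 9030 and 2077 in WT replicates 1 to 4. Its highest and lowest values were those of WT replicates 3 and 4, which went opposite ways here, and its difference was 0.21 ± 0.44 (SE; limma adjusted p = 0.833).

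Small heat shock protein genes did not separate the groups. Of 6 tested members 5 had differences above 0 and 1 below, and the median was 0.13, beside 0.12 over all genes. None had an unadjusted p under 0.05, beside 7.06% of all genes higher and 6.80% lower. Without WT replicates 3 and 4 the count was 1 above 0 and 5 below, and with array quality weights the median was -0.20. CRYAB had 24447, 13024, 8184 and 8295 normalized counts in mutant replicates 1 to 4, against 18211, 6885, 9176 and 6733 in WT replicates 1 to 4. In each group replicate 1 stood above the rest. The difference was 0.37 ± 0.45 (SE; limma adjusted p = 0.702).

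HSPB6, also called HSP20, had 27669 normalized counts in mutant replicate 1 but 6107, 6582 and 7078 in mutant replicates 2 to 4, against 15811, 6254, 3503 and 8046 in WT replicates 1 to 4. Its difference was 0.37 ± 0.58 (SE; limma adjusted p = 0.771), and -0.14 without mutant replicate 1. HSPB7, which binds filamin C in heart muscle, varied little in mutant ventricles, at 21093, 22954, 21998 and 19765 in mutant replicates 1 to 4. It had 29048, 26734, 17159 and 12978 in WT replicates 1 to 4, and the mutant values lay inside the WT range. The means of HSPB7 were 21453 ± 1358 in mutant and 21480 ± 7656 in WT libraries (SD, n = 4 each).

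HSPB1, or HSP27, had 4124, 4299, 5674 and 5720 in mutant replicates 1 to 4, against 8352, 4905, 4685 and 2004 in WT replicates 1 to 4, and again the WT group held both extremes. HSPB8, the partner of BAG3 in the removal of damaged filamin, had 3236, 2056, 2236 and 2425 in mutant replicates 1 to 4, against 2730, 2996, 2321 and 1383 in WT replicates 1 to 4. Its groups overlapped and its difference was 0.11 ± 0.29 (SE; limma adjusted p = 0.867). HSPB3, a muscle member of the family, had 931, 973, 742 and 616 in mutant replicates 1 to 4, against 1569, 679, 2926 and 508 in WT replicates 1 to 4. It was the only one of the 6 with a difference below 0, at -0.48 ± 0.50 (SE; limma adjusted p = 0.656), and that was -0.02 without WT replicate 3.

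**Figure D3:**
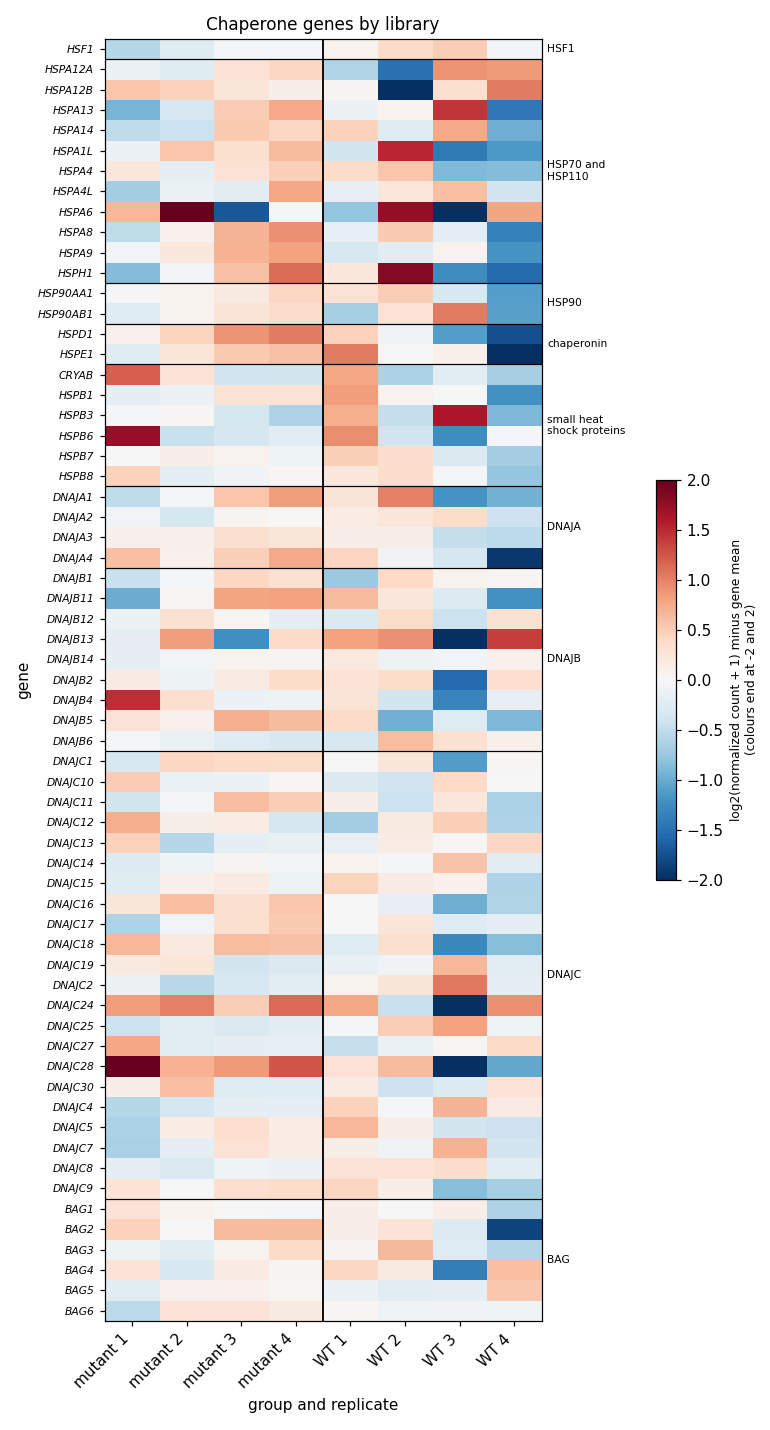
Log2(normalized count + 1) of each of the 63 genes minus its mean over the 8 libraries, with mutant libraries on the left, WT libraries on the right and families from top to bottom. WT replicate 4 was the lowest of the 8 libraries in 23 members and WT replicate 3 in 16, and the blue blocks in these columns cover most HSP70, HSP90 and chaperonin genes in WT replicate 4.

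J protein genes made up 35 of the 63 members, of which 3 had an unadjusted p under 0.05 in the higher direction and 1 in the lower. These were 8.57% and 2.86% of the 35, beside 7.06% and 6.80% of all genes. Their median difference was 0.12, the same as over all genes to 2 decimals. DNAJC18 had the smallest p of all members. It had 564, 411, 548 and 539 normalized counts in mutant replicates 1 to 4, against 299, 448, 145 and 198 in WT replicates 1 to 4. WT replicate 2 lay above mutant replicate 2, and otherwise the groups were apart. The log2 difference was 1.03 ± 0.35 (SE; limma adjusted p = 0.273), and 0.48 without WT replicates 3 and 4.

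DNAJC16 had 181, 234, 192 and 226 in mutant replicates 1 to 4, against 154, 137, 77.5 and 101 in WT replicates 1 to 4. The lowest mutant value exceeded the highest WT value, with a difference of 0.86 ± 0.31 (SE; limma adjusted p = 0.296), and 0.51 without WT replicates 3 and 4. DNAJB5 had 805, 697, 1082 and 1021 in mutant replicates 1 to 4, against 856, 337, 547 and 352 in WT replicates 1 to 4. Only WT replicate 1 reached the mutant range. The difference of DNAJB5 was 0.87 ± 0.33 (SE; limma adjusted p = 0.305), and 0.72 without WT replicates 3 and 4. DNAJC25 had 167, 191, 184 and 191 in mutant replicates 1 to 4, against 218, 315, 392 and 210 in WT replicates 1 to 4. It was the other member besides DNAJC4 whose mutant values all lay below the WT values, with a difference of -0.58 ± 0.28 (SE; limma adjusted p = 0.385).

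DNAJB1, the main J partner of inducible HSP70 in the cytosol, had 468, 616, 849 and 787 in mutant replicates 1 to 4, against 379, 835, 669 and 647 in WT replicates 1 to 4. The groups overlapped throughout, with a difference of 0.12 ± 0.30 (SE; limma adjusted p = 0.861). DNAJA1, a farnesylated cytosolic J protein, had 1506, 2107, 3152 and 3842 in mutant replicates 1 to 4, against 2570, 4297, 935 and 1111 in WT replicates 1 to 4. Its 2 lowest values were those of WT replicates 3 and 4 and its highest that of WT replicate 2, as for HSPH1 and HSPA4. The difference was 0.44 ± 0.51 (SE; limma adjusted p = 0.692), and -0.42 without WT replicates 3 and 4.

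DNAJB4 was highest in mutant replicate 1, at 3329 normalized counts, with 1507, 1098 and 1105 in mutant replicates 2 to 4, against 1431, 922, 475 and 1068 in WT replicates 1 to 4. Mutant replicate 1 was likewise the highest library for CRYAB and HSPB6. DNAJB4 differed by 0.80 ± 0.44 (SE; limma adjusted p = 0.432), and by 0.43 without mutant replicate 1. DNAJA4 had 3318, 2312, 3042 and 3706 in mutant replicates 1 to 4, against 2955, 2076, 1725 and 575 in WT replicates 1 to 4, a difference of 0.96 ± 0.46 (SE; limma adjusted p = 0.385). WT replicate 1 lay within the mutant range, and without WT replicates 3 and 4 the difference was 0.30.

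DNAJB6, mutated in a human muscular dystrophy, had 1475, 1384, 1262 and 1223 in mutant replicates 1 to 4, against 1216, 2329, 1875 and 1620 in WT replicates 1 to 4. Only the lowest WT value lay under the mutant values, and the difference was -0.36 ± 0.24 (SE; limma adjusted p = 0.502). DNAJC2, which works at the ribosome, had 370, 273, 321 and 348 in mutant replicates 1 to 4, against 420, 481, 833 and 353 in WT replicates 1 to 4. WT replicate 3 was far above the rest, and the difference was -0.60 ± 0.29 (SE; limma adjusted p = 0.392). DNAJC8, DNAJC13, DNAJC14 and DNAJA2 had differences of -0.34, -0.22, -0.19 and -0.18, and their groups overlapped.

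BAG genes encode exchange factors of HSP70, and 6 were tested. BAG3, which with HSPB8 and HSP70 maintains the Z-disc and whose mutations cause human cardiomyopathy, had 1334, 1234, 1502 and 1853 normalized counts in mutant replicates 1 to 4. In WT replicates 1 to 4 it had 1487, 2245, 1197 and 946. The mutant values lay inside the WT range, with means of 1481 ± 272 in mutant and 1469 ± 563 in WT libraries (SD, n = 4 each) and a difference of 0.07 ± 0.29 (SE; limma adjusted p = 0.923). BAG2, an inhibitor of the ubiquitin ligase CHIP, had 542, 394, 612 and 613 in mutant replicates 1 to 4, against 430, 476, 325 and 108 in WT replicates 1 to 4. WT replicate 4 was the lowest, and the difference of 0.87 ± 0.45 (SE; limma adjusted p = 0.409) was 0.23 without WT replicates 3 and 4. BAG1, BAG4, BAG5 and BAG6 had differences of 0.18, 0.09, -0.0029 and 0.10.

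The list of heat-inducible HSF1 targets took HSPA1L, HSPA6, HSPA8, HSPH1, HSP90AA1, HSP90AB1, DNAJA1, DNAJB1, DNAJB4, HSPB1, CRYAB, HSPB8, BAG3, HSPD1 and HSPE1. It is mixed, since HSPA8 and HSP90AB1 are the constitutive genes named above and HSPA1L is a relative of the inducible genes. HSPA1A and HSPA1B were not analysed. All 15 differences were above 0, beside 56.9% of all genes, with a median of 0.38, beside 0.12 over all genes. Of the 15, only HSPD1 had an unadjusted p under 0.05 (6.67%, beside 7.06% of all genes). All 15 stayed above 0 after rescaling by edgeR's TMM factors or by the total of nuclear reads. After quantile normalization HSPA1L and HSPA6 were below 0. In the count models, HSPH1 was below 0 in both DESeq2 and edgeR, and HSP90AB1 and HSPB1 were below 0 in DESeq2. With array quality weights 11 of 15 were above 0, with a median of 0.14. The signs also depended on WT replicates 3 and 4. Without that pair, 6 of 15 differences were above 0 and 9 below, and the median was -0.22, beside 0.01 over all genes. Leaving out either of them alone left the median above 0, at 0.27 without WT replicate 3 and 0.15 without WT replicate 4. Leaving out WT replicate 1 or 2 instead gave 0.60 or 0.65. Without mutant replicate 4, the library labelled KCNH3, the median was 0.23, with 14 of 15 above 0.

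The same list was also described library by library. The median deviation of the 15 genes from their means over the 8 libraries was -0.11, 0.08, 0.28 and 0.38 (log2) in mutant replicates 1 to 4. It was 0.21, 0.40, -0.26 and -1.08 in WT replicates 1 to 4. WT replicate 2 was the highest library on this list and WT replicate 4 the lowest. WT replicate 2 also had the highest neutrophil and erythroid marker sums, whose part in this was not tested. Over all genes tested the median deviation of WT replicate 4 was 0.05 and that of WT replicate 3 was -0.10, so WT replicate 4 was low on this list and not on the median gene. WT replicate 4 also had the lowest cardiomyocyte marker sum (453454) and the highest endothelial (37140) and macrophage (4066) sums. Smooth muscle and pericyte markers (5 of 5, none at 0) summed to 10308 to 19266 in mutant libraries, against 17581, 7945, 33064 and 31717 in WT replicates 1 to 4. WT replicates 3 and 4 were thus the highest on them. Macrophage markers (6 of 6, with CD68 and MRC1 at 0 in at least 1 library) summed to 1107 to 3358 in mutant and 565 to 4066 in WT libraries. What part these cell types have in the chaperone values of WT replicates 3 and 4 was not tested.

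**Figure D4:**
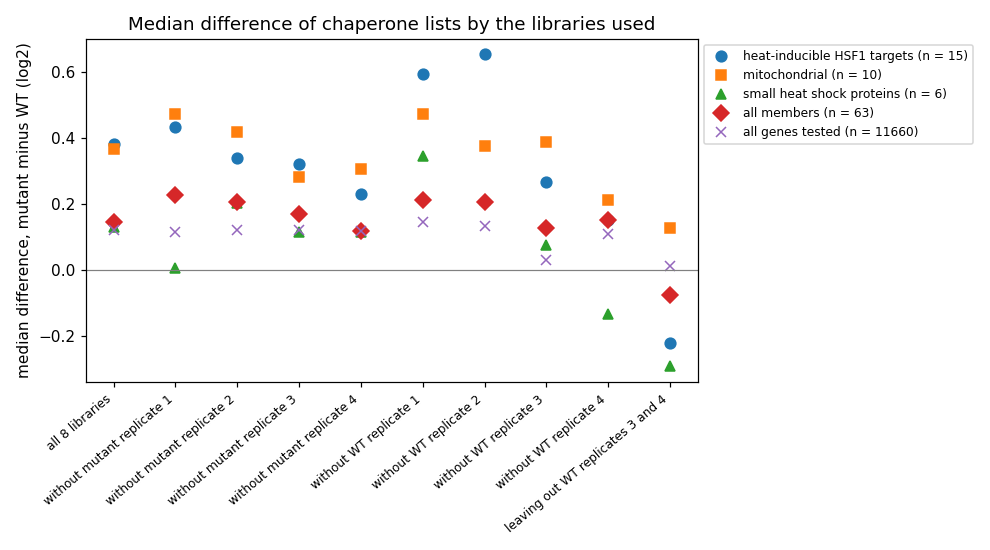
Median log2 difference (mutant minus WT) of the heat-inducible, mitochondrial and small heat shock protein lists, of all 63 members and of all genes tested, with all 8 libraries, without each library and without WT replicates 3 and 4. The heat-inducible median lies at 0.38 with all libraries and at -0.22 without the pair, and the mitochondrial median stays above 0 at 0.13.

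Reads of the 67 named genes made up 1.66%, 1.49%, 1.67% and 1.81% of the nuclear reads of mutant replicates 1 to 4, against 1.66%, 1.59%, 1.02% and 0.882% in WT replicates 1 to 4. The Wilson 95% intervals were 1.65% to 1.67%, 1.48% to 1.49%, 1.67% to 1.68% and 1.80% to 1.82% in mutant replicates 1 to 4. In WT replicates 1 to 4 they were 1.65% to 1.67%, 1.58% to 1.60%, 1.01% to 1.03% and 0.876% to 0.889%. WT replicates 1 and 2 lay within the mutant range, and WT replicates 3 and 4 lay well under it. The intervals take each read as independent and leave out the spread between pigs. The reads carry no molecular identifiers, so copies of 1 molecule count as separate reads and the intervals may be too narrow. Between pigs the share was 1.66% ± 0.133% in mutant and 1.29% ± 0.394% in WT libraries (SD, n = 4 each).

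Values were closer together in mutant than in WT ventricles. The standard deviation of the log2 values was smaller in the mutant group for 52 of 63 members (82.5%), with medians of 0.30 in mutant and 0.59 in WT libraries. The same held for 84.3% of all genes tested, so the tighter mutant group was not particular to chaperones. Without WT replicate 3 the shares were 69.8% of members and 74.1% of all genes.

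Count models were also fitted. On whole reads recovered from the normalized counts, DESeq2 called 0 of 63 members, against 1.32% of genes called higher and 3.24% called lower, and edgeR's quasi-likelihood test called 0 of 63, against 0 of all genes. In DESeq2, 6 members were higher and 3 lower at an unadjusted p under 0.05, against 6.31% and 10.1% of all genes. In edgeR there were 5 and 1, against 5.87% and 9.01%. The authors' deposited table also calls 0 of the 63 members, against 1.32% of its genes called higher and 3.23% called lower, and its smallest adjusted p among them is 0.117, for DNAJC16. Calls appeared in DESeq2 only when certain WT libraries were left out. HSPD1 (log2 fold change 1.46, adjusted p = 0.0272) and DNAJB5 (1.14, adjusted p = 0.0113) were called without WT replicate 1, where 8.04% of all genes were called in either direction. DNAJC18 (1.24, adjusted p = 0.0121) was called without WT replicate 2, where 5.51% were. Both of these fits kept WT replicates 3 and 4, the libraries with the high mitochondrial shares. Leaving out WT replicate 3 or WT replicate 4 gave 0 members called, against 4.73% and 3.99% of all genes.

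Other genes of the chaperone network were taken from a list of cochaperones, chaperonin and prefoldin subunits and mitochondrial proteases. Of its 53 tested genes 0 passed limma's test over all genes, and at an unadjusted p under 0.05 there were 3 higher and 3 lower, 5.66% each way, beside 7.06% and 6.80% of all genes. The median difference was 0.05, beside 0.12. These shares lie under those of genes in general, and the 6 genes are given as descriptions. The lower ones were the prefoldin subunits PFDN5 and PFDN1, which hand actin and tubulin to the chaperonin, and FKBP5, a glucocorticoid-induced cochaperone of HSP90. PFDN5 had 633, 587, 534 and 489 normalized counts in mutant replicates 1 to 4, against 968, 800, 1003 and 1170 in WT replicates 1 to 4. The groups did not overlap, and the difference was -0.81 ± 0.21 (SE; limma adjusted p = 0.218). DESeq2 called PFDN5, and so does the authors' deposited table (log2 fold change -0.81, adjusted p = 0.0132). In DESeq2, 0 of the 53 were called higher and 1 lower, against 1.32% and 3.24% of all genes. PFDN1 had a difference of -0.61 ± 0.22 (SE), also without overlap. Of the 53, 0 lay higher without overlap and 2 lower (3.77%), against 6.17% and 5.22% of all genes, so these shares too were under those of genes in general. FKBP5 had 1054, 2463, 1610 and 1072 in mutant replicates 1 to 4, against 1295, 2826, 5334 and 7799 in WT replicates 1 to 4, and its difference of -1.27 was -0.39 without WT replicates 3 and 4.

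The higher ones were SMYD1, UNC45B and TOMM70. SMYD1 and UNC45B take part in the folding and assembly of myosin in muscle, and TOMM70 receives proteins from HSP70 and HSP90 at the mitochondrial surface. SMYD1 had 4674, 1390, 4110 and 4721 normalized counts in mutant replicates 1 to 4, against 1297, 1514, 644 and 49.7 in WT replicates 1 to 4. Mutant replicate 2 lay within the WT range, and the difference was 2.73 ± 0.97 (SE; limma adjusted p = 0.290). Leaving out WT replicate 4 gave 1.63, and leaving out WT replicates 3 and 4 together gave 1.26. UNC45B had 2104, 2932, 4743 and 4258 in mutant replicates 1 to 4, against 2137, 2523, 1943 and 511 in WT replicates 1 to 4, and mutant replicate 1 lay among the WT values. Its difference was 1.13 ± 0.50 (SE; limma adjusted p = 0.357). The same omissions gave 0.61 and 0.52 in that order. The cardiomyocyte marker sums given above moved in the same direction, and their part in these differences was not tested. AHSA1, which stimulates the ATPase of HSP90, had 563, 106, 1030 and 1057 in mutant replicates 1 to 4, against 1727, 2079, 1080 and 726 in WT replicates 1 to 4, a difference of -1.35 ± 0.69 (SE; limma adjusted p = 0.407). It was -0.61 without mutant replicate 2 and -1.90 without WT replicates 3 and 4.

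At the edge of the filter, DNAJB13 had 5.50, 12.1, 2.15 and 8.61 normalized counts in mutant replicates 1 to 4, against 11.9, 13, 0 and 18.2 in WT replicates 1 to 4, and passed with 4 libraries at 10 or more. HSPA6 passed with 5. DNAJC6, the clathrin-uncoating cochaperone auxilin, stayed below with 3 libraries, at 36.0, 9.11, 4.29 and 9.93 in mutant replicates 1 to 4, against 0, 2.59, 24.2 and 51.0 in WT replicates 1 to 4. DNAJC5G had reads in 2 libraries only, 63.5 in mutant replicate 1 and 41.2 in WT replicate 4. DNAJC22 and HSPB9 were at most 4.28 and 3.05. DNAJC24, a gene of diphthamide synthesis, had 45.8, 51.6, 35.8 and 56.3 in mutant replicates 1 to 4, against 43.7, 18.1, 0 and 48.5 in WT replicates 1 to 4. Its difference was 1.73 ± 1.19 (SE), and 0.45 without WT replicate 3. In DESeq2 and edgeR on the reads it was 0.69 and 0.71.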

How the data were processed

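Per the labels' protocols, poly-A RNA of left ventricle was selected on oligo-dT beads and sequenced from random-primed libraries. The deposited table gives 1 row per gene symbol with 8 columns of signal, read counts that the authors had scaled with a size factor for each library, per the file headers and the values. Beside them stand the authors' mean signal, log2 fold change and its error, Wald score and p-values, per the file headers. The submitters' processing notes name DESeq2 and the human build GRCh38. No source used here gives the aligner, the counter or the annotation. Gene spans of the pig RefSeq table were used only to name neighbours and overlapping genes. Coordinates are not printed, and sequences are not used here.

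All values were whole multiples (tolerance 1e-06 reads) of 1 read, so whole reads were recovered. Of 14720 rows, 2 named for an annotation source (0.392% to 0.853% of reads) were left out. All 67 member symbols matched a pig gene, and the spans of 24 of the 63 tested overlap another gene in the RefSeq table. Values were taken as log2(normalized count + 1), which understates changes of low genes, and fitted with limma 3.58.1 (trended, robust prior; R 4.3.3) over 11660 genes, tested on simulated data beforehand. DESeq2 1.42.0 and edgeR 4.0.16 on recovered reads, other scalings, pseudocounts, filters and priors, array weights and left-out libraries were alternatives. Members, lists and the rule for named genes were chosen with earlier results of these data known. The rule took core members, the 10 smallest p in each direction, the widest ranges, the edge of the filter and 4 network genes per direction, 1 of which is not reported here.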

Additional observations from a re-analysis of the deposited data

Results flagged for a closer look

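In groups of 4, a library was listed when its gap to the nearest other value, divided by the group's range, was over the 95% critical value of Dixon's test. Chance lists about 1 in 20 groups. Here 12 of 126 member groups (9.52%) were listed, beside 10.1% over all genes tested, so chaperones were not listed more often than genes in general.

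In mutant replicate 1, HSPB6 (27669 normalized counts), DNAJC28 (331) and DNAJC27 (446) lay above the other mutant libraries, and BAG6 (1524) and DNAJC1 (237) lay below them. In mutant replicate 2, DNAJC18 (411) lay below the rest of its group. In WT replicate 3, DNAJC19 (1177) was high and DNAJB2 (155) low. In WT replicate 4, BAG5 (478) was high and DNAJC8 (820) low. In WT replicates 1 and 2, BAG6 (2291) and HSPA1L (44.1) were high in that order.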

How the results depend on the processing

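No paired analysis was possible because each pig has its own number in the labels and none is shared between groups. No member was called in either direction in limma with all libraries, under its other settings or without any 1 library, nor in DESeq2 or edgeR with all libraries. Over 48 named genes and their alternatives, 907 of 955 differences kept their direction. The cause of each change below was not tested. In DESeq2 without WT replicate 1 or 2, an alternative chosen after seeing the data, 2 and 1 members were called higher.

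Members with an unadjusted p under 0.05 were 5 higher and 1 lower in limma. They were 8 and 2 with array quality weights (12.7% and 3.17%, against 10.2% and 9.12% of all genes), and 3 lower in DESeq2, against 10.1%. Without WT replicates 3 and 4 there were 3 higher, against 8.54% of all genes. When 1 library was left out they were 1 to 8 higher and 0 to 5 lower. The shares of all genes were then 3.66% to 9.93% higher and 4.24% to 8.87% lower. Members without overlap were 2 higher and 2 lower. They were 1 higher under a filter of 100, which tests fewer genes, against 6.66% of all genes. After nuclear total rescaling they were 4 lower (6.35%, against 4.09%). Without WT replicates 3 and 4 they were 6 higher and 8 lower, against 15.2% and 14%. Without 1 library they were 2 to 6 each way, against 6.59% to 11.1% of all genes higher and 5.52% to 9.31% lower. Fewer libraries make separation more frequent by construction. The members' median was 0.12 to 0.23 without 1 library, 0.12 to 0.23 under the other settings and -0.077 without WT replicates 3 and 4. The median over all genes was -0.06 in DESeq2 and 0.20 after nuclear total rescaling, against 0.12. Relative to it the members' median was 0.02 to 0.17 higher under the settings that keep all libraries, 0.0016 higher without mutant replicate 4, and differed by -0.09 without WT replicates 3 and 4. DESeq2 called 1 of 53 network genes, PFDN5 at -0.81, against 1.32% of all genes called higher and 3.24% called lower.

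Some uncalled differences changed sign. Without WT replicates 3 and 4 they were -0.23 for HSPA1L, -0.027 for HSPA6, -0.25 for HSPA4, -0.82 for HSPH1, -0.23 for HSP90AA1, -0.24 for HSPE1, -0.39 for HSPB1, -0.078 for HSPB6, -0.38 for HSPB7, -0.22 for HSPB8, -0.42 for DNAJA1 and -0.32 for BAG3. With array quality weights they were -0.91 for HSPA6, 0.14 for HSPA4L, -0.19 for CRYAB, -0.33 for HSPB6, -0.21 for HSPB7, -0.16 for HSPB8 and -0.0565 for BAG3. In DESeq2 they were -0.079 for HSPH1, -0.0045 for HSP90AB1, -0.0097 for HSPB1 and -0.0022 for HSPB7, and in edgeR -0.074 for HSPH1. After quantile normalization they were -0.37 for HSPA1L and -0.21 for HSPA6, and with a pseudocount of 0.5 DNAJB13 was at 0.057.

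Leaving out 1 library gave ranges of -0.12 to 1.68 for HSPA6, -0.41 to 0.081 for HSPA4L, -0.063 to 1.05 for HSPH1, -0.0022 to 0.53 for HSP90AA1, -0.12 to 0.59 for HSP90AB1, -0.10 to 1.00 for HSPE1, -0.24 to 0.45 for HSPB1, -0.14 to 0.75 for HSPB6, -0.15 to 0.24 for HSPB7, -0.12 to 0.25 for HSPB8, -0.10 to 0.29 for DNAJB1, -0.12 to 0.30 for BAG3 and -1.09 to 0.34 for DNAJB13. WT replicate 3, at 4.84 normalized counts per read, limits what low genes can show.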

Other observations

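Mutant replicate 1 was the lowest library of its group in 29 of 63 members (46.0%) and the highest in 15 (23.8%), whereas over all genes tested it was the lowest in 36.5% and the highest in 38.3%. Mutant replicate 4, the library labelled with KCNH3, was the highest of its group in 23 members (36.5%), beside 18.3% of all genes. WT replicate 4 was the lowest of its group in 32 members (50.8%), beside 26.6% of all genes. These counts are descriptions, and no test was run on them.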
